A study of Mus musculus with 3 samples.

Results

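The tumour suppressor p53, its regulators and its known target genes were examined in RNA-seq of mouse embryonic stem cells (ESCs), cultured pluripotent cells derived from the early embryo. The set was a fixed list of 34 gene symbols, chosen with earlier results of these data known. Of these, 33 were found among the 24006 gene symbols of the deposited tables. They comprised 5 genes for p53 and its regulators, 9 for cell cycle arrest and growth control, 15 for apoptosis and survival and 4 for DNA repair and metabolism. The symbol Tigar was not found, although the transcript that GENCODE M21 assigns to it was present under an older name and is described separately.

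The cells were male and isogenic, of C57BL/6x129sV background. They were an ATRX knockout (genotype ATRX-/-, clone KO1-44), a DAXX knockout (DAXX-/-, clone KO2-3) and a wildtype (WT, clone WT26). ATRX, which remodels chromatin, and DAXX, which carries histones, together deposit the histone variant H3.3 at heterochromatin. Both knockouts were made by CRISPR targeting, and the sources used here do not give the position of the change within either gene. All 3 clones were grown in serum with leukaemia inhibitory factor and had been passaged from irradiated feeder cells onto gelatin before RNA was taken. Each genotype was 1 clone and 1 library, so no difference has a replicate check, no p-value could be computed, and genotype cannot be told apart from clone or library.

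p53 is a transcription factor that is held low in unstressed cells by the ubiquitin ligase MDM2 and its partner MDM4. DNA damage and other stresses stabilise it, and it then activates genes that stop the cell cycle, trigger apoptosis, repair DNA and restrain p53 itself, MDM2 among them. Mouse ESCs contain abundant p53 and lack the durable checkpoint at the entry to S phase that differentiated cells have.

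p53 binds DNA as a tetramer, at a pair of copies of a 10-base consensus (3 purines, C, 2 bases that are A or T, G, 3 pyrimidines) that lie next to each other or with a short spacer. The promoter windows of the members were searched for such pairs because the list is defined by this factor. The windows are RefSeq sequences on build GRCm38.p6 and span 250 bases before to 50 bases after each annotated start. They were found for 25 of the 33 members. A pair with no spacer and at most 3 mismatches, on either strand, was present in 8 of these members, and their stretches follow. Each is written 5′ to 3′ on the strand of its gene, with the pair in capitals.
Cdkn1a: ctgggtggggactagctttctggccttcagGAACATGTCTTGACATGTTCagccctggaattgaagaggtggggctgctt
Ccng1: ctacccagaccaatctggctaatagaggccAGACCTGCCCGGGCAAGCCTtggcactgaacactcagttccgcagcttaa
Gtse1: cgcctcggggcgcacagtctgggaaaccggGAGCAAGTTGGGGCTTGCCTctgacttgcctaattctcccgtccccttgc
Sesn1: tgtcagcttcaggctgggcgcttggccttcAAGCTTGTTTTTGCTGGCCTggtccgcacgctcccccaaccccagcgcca
Bbc3: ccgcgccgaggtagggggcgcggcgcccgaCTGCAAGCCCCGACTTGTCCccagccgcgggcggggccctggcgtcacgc
Aen: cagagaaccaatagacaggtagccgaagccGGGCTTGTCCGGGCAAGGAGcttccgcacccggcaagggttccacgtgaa
Rps27l: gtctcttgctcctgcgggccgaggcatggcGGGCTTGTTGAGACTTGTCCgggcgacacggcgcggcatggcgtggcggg
Trp53: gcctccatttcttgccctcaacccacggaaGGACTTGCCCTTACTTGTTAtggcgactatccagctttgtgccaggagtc

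These stretches lie at chr17:29090898-29090977 on the plus strand (Cdkn1a), chr11:40755432-40755511 on the minus strand (Ccng1), chr15:85859915-85859994 on the plus strand (Gtse1) and chr10:41887236-41887315 on the plus strand (Sesn1). The others lie at chr7:16309456-16309535 (Bbc3), chr7:78895907-78895986 (Aen), chr9:66946266-66946345 (Rps27l) and chr11:69580254-69580333 (Trp53), all on the plus strand. The pair of Cdkn1a begins at position -51 relative to the upstream annotated start of that gene. The window at its downstream start held no pair. Gtse1, Sesn1, Rps27l and Bbc3 likewise also had windows without a pair that lacks a spacer. The pairs of Cdkn1a, Ccng1, Gtse1 and Rps27l have 1 mismatch. The pairs of Sesn1, Bbc3, Aen and Trp53 have 3. Counted over promoters, 9 of 40 member windows held such a pair (22.5%), against 452 of 32817 promoters of the whole table (1.38%). With a spacer of up to 13 bases allowed, the counts were 15 of 40 (37.5%) and 5109 of 32817 (15.6%). A match describes letters in these windows. Several members are known as p53 targets through such sequences, so the share is not independent of how the list was made.

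The libraries held 13988376 reads on transcripts for the ATRX knockout, 11224100 for the DAXX knockout and 13981915 for WT. Atrx itself had 1800, 3576 and 4582 reads in the ATRX knockout, DAXX knockout and WT libraries, and Daxx had 972, 623 and 1125. The lowest count of either gene was in the library named after it, with transcript remaining. The clones also differed in RNA from the Y chromosome. Over its 6 tested genes the median log2 fold against WT was -1.23 in the ATRX knockout and -4.17 in the DAXX knockout. The cause was not tested. All 10 pluripotency markers checked, among them Pou5f1 and Nanog, exceeded 1 CPM (read count per 1000000 reads) in every library. Markers of other cells were also present. Summed over 10 primitive endoderm markers, the level was 142.8, 66.7 and 272 CPM in the ATRX knockout, the DAXX knockout and WT, with Sox17 and Foxa2 at 0 in the DAXX knockout. Summed over 12 markers of feeder fibroblasts it was 1655, 1651 and 1332, nearly all of it Fn1, with 5, 6 and 1 markers at 0, Lum among them in every library. Apart from Fn1 the tested feeder markers stood below WT. Of the 6 tested, 4 had the whole interval below WT in the ATRX knockout and 1 above, with a median log2 fold of -1.19, and in the DAXX knockout the counts were 5 and 1 and the median was -1.79. Acta2 fell beyond 2-fold in the ATRX knockout, and Acta2, Col1a1, Col1a2 and Tagln did so in the DAXX knockout. Summed over 9 trophoblast markers it was 84.7, 84.0 and 120 CPM, with 2 markers at 0 in each library. The part of these cells in the differences below was not tested, and in bulk RNA fewer cells of a type and less RNA per cell cannot be told apart.

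The CPM values are scaled between libraries by the trimmed mean of M values (TMM) over all genes. Parentheses after a log2 fold hold its 95% interval, which covers counting error only and compares libraries, not genotypes. A gene is said to have risen or fallen only when this whole interval lay beyond 2-fold, and it was tested only with at least 1 CPM in at least 1 of the libraries compared. All rises and falls are given on the log2 scale. Of the 33 members, 31 reached that level in every comparison. The others were Fas, a death receptor, with 6, 0 and 2 reads in the ATRX knockout, DAXX knockout and WT, and Cd82, a tetraspanin, with 2 reads in each library.

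The p53 genes as a group stood higher in the ATRX knockout than in WT. Plk2 and Pmaip1 rose beyond 2-fold and no member fell, so 2 of 31 tested members had risen, where the background over all 13230 genes tested was 0.695% risen and 1.15% fallen. The differences were mostly smaller than 2-fold. For 23 of 31 members (74.2%) the whole interval lay above no change, against a background of 25.4%, and for 3 members (9.68%) it lay below, against 21.3%. Intervals narrow as reads increase, and the members were not matched to all genes by level. Such shares, here and below, therefore depend on level as well as on fold. Counting them was also a choice made after seeing the data. The median log2 fold of the members was 0.41, beside 0.02 over all genes tested.

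The same genes stood closer to WT in the DAXX knockout. No member rose or fell beyond 2-fold, where the background over 13151 genes was 0.487% risen and 1.55% fallen. The whole interval lay above no change for 12 of 31 members (38.7%), against 23.7% of all genes, and below it for 6 (19.4%), against 17.1%. The median log2 fold was 0.11, beside 0.02 over all genes. With library sizes taken as total counts the number above no change was 8 and the median was 0.02, beside a median of -0.08 over all genes.

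Set directly against the DAXX knockout, the ATRX knockout had 1 member that rose, Plk2, and none that fell, where the background over 12991 genes was 0.770% risen and 0.362% fallen. The whole interval lay above no change for 20 of 31 members (64.5%), against 20.7% of all genes, and below it for 2 (6.45%), against 20.9%. The median log2 fold was 0.20, beside 0.00 over all genes. These 3 comparisons share libraries in pairs, so they are not independent of each other. The ATRX knockout was the highest library for 21 of the 31 members, the DAXX knockout for 7 and WT for 3. For 17 members the whole interval of the ATRX knockout lay above no change over both other libraries. Neither the highest library nor this pattern was counted over all genes, so no background stands beside these counts.

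**Figure D1:**
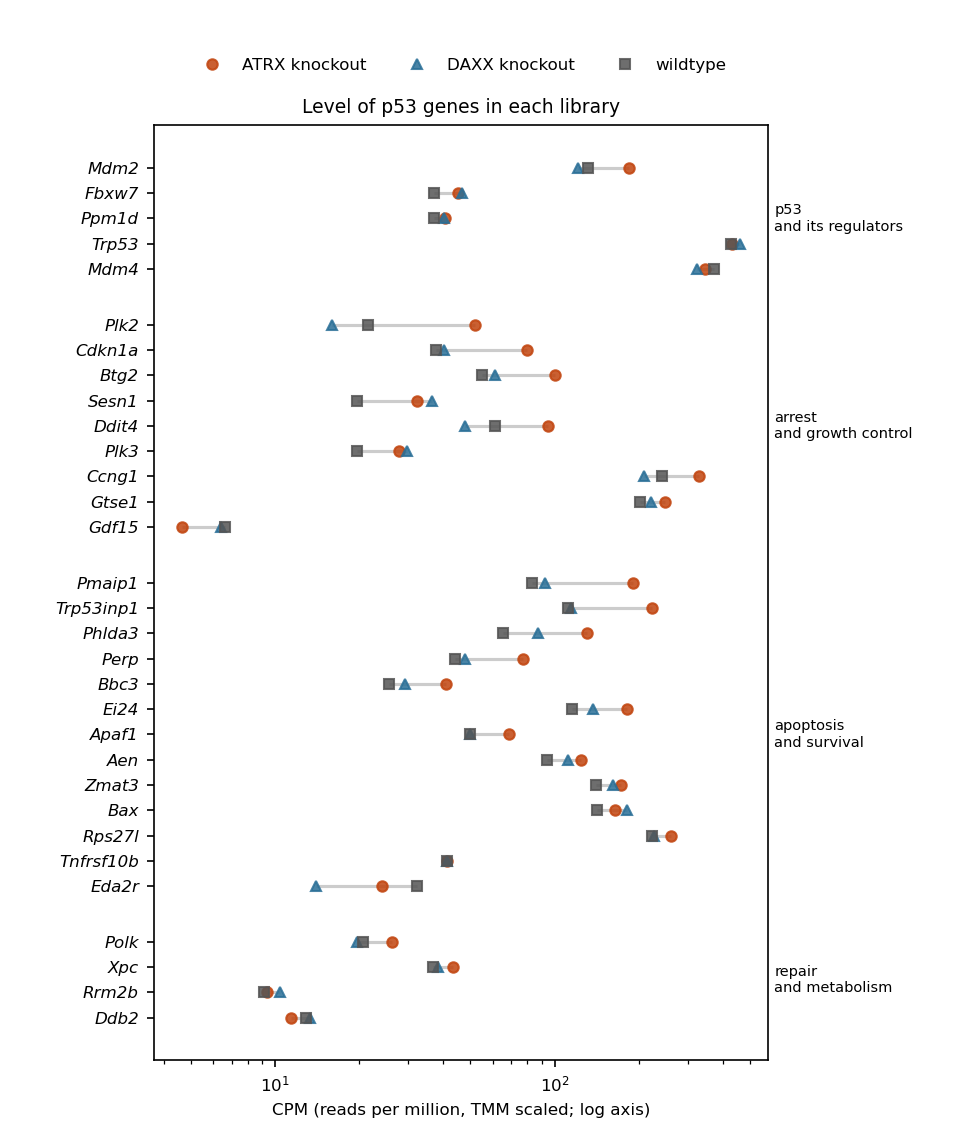
Level of the 31 tested p53 genes in each library, in CPM on a log axis, grouped by role; circles are the ATRX knockout, triangles the DAXX knockout and squares WT, 1 library each. In most rows of the arrest and apoptosis groups the circle lies to the right of the other 2 symbols, which lie close together, as for Cdkn1a with 79.5 CPM in the ATRX knockout, 40.3 in the DAXX knockout and 37.6 in WT.

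The differences between the ATRX knockout and WT were larger among the arrest and apoptosis genes than among p53, its regulators and the repair genes. The median log2 fold was 0.63 over the 9 arrest and growth genes and 0.46 over the 13 tested apoptosis genes. It was 0.13 over the 5 genes for p53 and its regulators and 0.14 over the 4 repair genes. These medians are not relative to the chromosome. Chromosome 11, with a median of -0.24, holds Trp53 and Ppm1d of the regulators and Ccng1 of the arrest group. Relative to that median they stood at 0.24, 0.37 and 0.68, so part of the contrast with the regulators may follow the chromosome. Summed over its members, the arrest group had 971 CPM in the ATRX knockout, 668 in the DAXX knockout and 666 in WT. The apoptosis group summed to 1703, 1297 and 1168 CPM and the regulators to 1046, 992 and 1006 CPM.

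Trp53, which encodes p53, was expressed at like levels in the 3 libraries, with 5956 reads in the ATRX knockout, 5040 in the DAXX knockout and 6210 in WT, or 430, 461 and 428 CPM. Against WT the log2 fold was 0.01 (-0.04 to 0.06) in the ATRX knockout and 0.11 (0.06 to 0.16) in the DAXX knockout. On the TPM scale, which divides counts by transcript length, it was the second most abundant member, at 440, 472 and 471 TPM, behind Rps27l in every library. Trp53 lies on chromosome 11 (69580359 to 69591873, plus strand, GRCm38), whose genes stood low as a whole against WT in both knockouts. The median log2 fold of the chromosome was -0.24 over 1122 genes in the ATRX knockout and -0.25 over 1110 genes in the DAXX knockout. Relative to that median, Trp53 was at 0.24 and 0.36. Between the knockouts the median of the chromosome was 0.02 over 1086 genes. Both low medians share the single WT library, so lower RNA in both knockouts cannot be told apart from higher RNA in WT. The sign of the Trp53 fold in the ATRX knockout also turned when library sizes were taken as total counts, to -0.06. The data measure its RNA, and p53 is regulated chiefly as a protein.

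Mdm2, the ubiquitin ligase that degrades p53 and itself a p53 target, was highest in the ATRX knockout. It had 184 CPM there, 121 in the DAXX knockout and 132 in WT. Against WT it stood at a log2 fold of 0.49 (0.40 to 0.57) in the ATRX knockout and at -0.12 (-0.22 to -0.02) in the DAXX knockout, within 2-fold in both. Mdm4, the partner of MDM2 that masks the activation domain of p53, was lower than WT in both knockouts, with 346, 322 and 373 CPM. The log2 fold of Mdm4 was -0.11 (-0.16 to -0.05) in the ATRX knockout and -0.21 (-0.27 to -0.15) in the DAXX knockout.

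Ppm1d, the phosphatase WIP1 that reverses damage signalling, had 40.5, 40.2 and 36.9 CPM in the ATRX knockout, DAXX knockout and WT, and both intervals against WT spanned no change. It too lies on chromosome 11 and stood at 0.37 in each knockout relative to that chromosome's median. Fbxw7, a substrate receptor of a ubiquitin ligase for cyclin E and MYC, had 45.1, 46.6 and 37.0 CPM. Both knockouts stood above WT, at a log2 fold of 0.29 (0.12 to 0.46) in the ATRX knockout and 0.33 (0.16 to 0.51) in the DAXX knockout.

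Among the genes of arrest and growth control, 8 of 9 (88.9%) had their whole interval above WT in the ATRX knockout, beside 25.4% of all genes tested. Of the 9, 1 rose beyond 2-fold, beside 0.695% of all genes. Plk2, a polo-like kinase of centriole duplication that is also an immediate early gene, had 717 reads in the ATRX knockout, 174 in the DAXX knockout and 312 in WT, or 51.8, 15.9 and 21.5 CPM. On the log2 scale it rose by 1.27 (1.07 to 1.46) in the ATRX knockout against WT and by 1.70 (1.46 to 1.95) against the DAXX knockout. Its log2 fold in the DAXX knockout against WT was -0.43 (-0.71 to -0.16). Its level in the ATRX knockout was thus well clear of both other libraries by counting error, while the DAXX knockout was the lowest.

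Cdkn1a encodes p21, the inhibitor of cyclin-dependent kinases through which p53 stops the cell cycle, and the pair of p53 copies printed above for it differs from the consensus at 1 base. It had 1101 reads in the ATRX knockout, 440 in the DAXX knockout and 545 in WT. The level in the ATRX knockout was 2.12-fold that of WT, a log2 fold of 1.08 (0.93 to 1.23), so its interval reached just inside 2-fold. The DAXX knockout did not differ from WT beyond counting error, at 0.10 (-0.08 to 0.29). The ATRX knockout stood above the DAXX knockout by a log2 fold of 0.98 (0.82 to 1.14).

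Btg2, an antiproliferative adaptor of mRNA deadenylation, had 100.5 CPM in the ATRX knockout, 61.0 in the DAXX knockout and 54.8 in WT. The ATRX knockout stood above WT by a log2 fold of 0.87 (0.75 to 1.0). Ccng1, cyclin G1, had 330, 208 and 242 CPM. This gave a log2 fold of 0.45 (0.38 to 0.51) in the ATRX knockout and -0.22 (-0.29 to -0.14) in the DAXX knockout. Ccng1 also lies on chromosome 11, and relative to that chromosome's median it stood at 0.68 in the ATRX knockout and 0.03 in the DAXX knockout, so its lower level in the DAXX knockout did not exceed that of its chromosome.

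Ddit4, the stress-induced inhibitor of mTOR complex 1 known as REDD1, had 1316 reads in the ATRX knockout, 520 in the DAXX knockout and 889 in WT. Its level against WT differed by a log2 fold of 0.63 (0.51 to 0.76) in the ATRX knockout and -0.36 (-0.52 to -0.21) in the DAXX knockout. Gtse1, which restrains p53 during G2, had 249, 222 and 203 CPM, with a log2 fold of 0.30 (0.23 to 0.37) in the ATRX knockout. The arrest group was not uniform in the DAXX knockout. By the whole interval, 4 of its 9 genes (44.4%) stood above WT and 3 (33.3%) below. Over all genes tested these shares were 23.7% and 17.1%.

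Sesn1 and Plk3 followed another order, with both knockouts above WT. Sesn1, sestrin 1, which inhibits mTOR complex 1, had 447 reads in the ATRX knockout, 397 in the DAXX knockout and 285 in WT, or 32.3, 36.4 and 19.6 CPM. Its log2 fold was 0.72 (0.50 to 0.94) in the ATRX knockout and 0.89 (0.67 to 1.11) in the DAXX knockout, the highest of any member there. Plk3, a stress-responsive polo-like kinase, had 27.7, 29.7 and 19.6 CPM, with log2 folds of 0.50 (0.28 to 0.73) and 0.60 (0.37 to 0.84). For both genes the interval between the knockouts spanned no change. Gdf15, a secreted growth factor induced by p53 and by ATF4, was the exception in the arrest group, with 64, 70 and 96 reads and a log2 fold of -0.52 (-1.0 to -0.05) in the ATRX knockout.

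**Figure D2:**
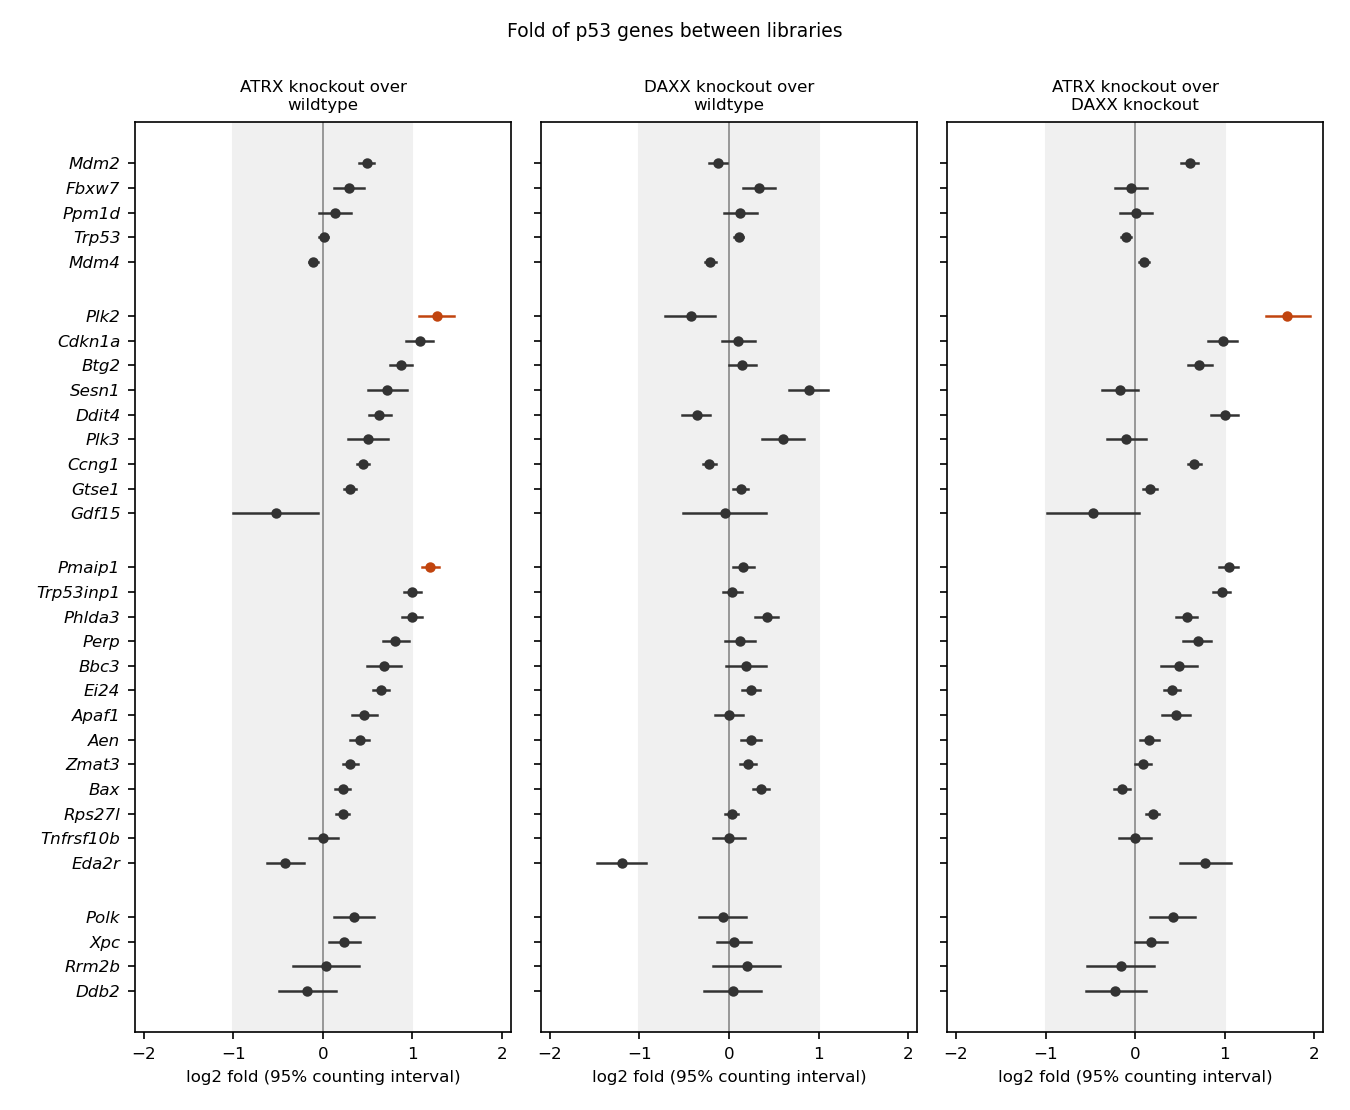
Log2 fold of each tested p53 gene with its 95% counting interval, for the ATRX knockout over WT, the DAXX knockout over WT and the ATRX knockout over the DAXX knockout; the grey band marks 2-fold and coloured points are genes whose whole interval lies beyond it. The coloured points are Plk2 and Pmaip1 on the left, none in the middle and Plk2 on the right.

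In the apoptosis and survival group, 11 of 13 tested genes (84.6%) had their whole interval above WT in the ATRX knockout and 1 (7.69%) below. Over all genes tested these shares were 25.4% and 21.3%. In the DAXX knockout the counts were 6 (46.2%) and 1 (7.69%), beside 23.7% and 17.1% of all genes. Pmaip1, which encodes the BH3-only protein NOXA that neutralises MCL1, had 2649 reads in the ATRX knockout, 1011 in the DAXX knockout and 1205 in WT, or 191.3, 92.6 and 83.0 CPM. It rose by 1.20 (1.11 to 1.30) in the ATRX knockout against WT. Between the knockouts the log2 fold was 1.05 (0.94 to 1.15), and in the DAXX knockout against WT it was 0.16 (0.04 to 0.28). Genes of chromosome 18, where Pmaip1 lies, had a median log2 fold of 0.06 over 339 genes in the ATRX knockout and 0.32 over 336 genes in the DAXX knockout. Relative to these medians Pmaip1 was at 1.14 in the ATRX knockout and -0.17 in the DAXX knockout.

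Bbc3, which encodes the BH3-only protein PUMA, was lower in abundance than Pmaip1 and had 566, 318 and 370 reads, or 40.9 CPM in the ATRX knockout, 29.1 in the DAXX knockout and 25.5 in WT. The log2 fold of Bbc3 was 0.68 (0.49 to 0.87) in the ATRX knockout and 0.19 (-0.03 to 0.41) in the DAXX knockout. Bax, the pore-forming effector on which these proteins act, differed little and was highest in the DAXX knockout, with 165, 182 and 142 CPM. Against WT, Bax stood at 0.22 (0.13 to 0.30) in the ATRX knockout and 0.36 (0.27 to 0.45) in the DAXX knockout. Apaf1, the scaffold of the apoptosome, had 68.6, 49.99 and 49.95 CPM, with a log2 fold of 0.46 (0.32 to 0.60) in the ATRX knockout and 0.00 (-0.16 to 0.16) in the DAXX knockout.

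Further genes of the group were higher in the ATRX knockout without passing the 2-fold limit. Trp53inp1, a stress protein that acts with p53 and in autophagy, had 3093 reads in the ATRX knockout, 1247 in the DAXX knockout and 1619 in WT, a log2 fold of 1.0 (0.91 to 1.09) in the ATRX knockout and 0.03 (-0.07 to 0.14) in the DAXX knockout. Phlda3, an inhibitor of AKT, had 1805, 954 and 950 reads. The log2 fold of Phlda3 was 0.99 (0.88 to 1.11) in the ATRX knockout and 0.42 (0.29 to 0.55) in the DAXX knockout, so for this gene both knockouts were above WT. Perp, a membrane protein of desmosomes and apoptosis, had 77.3, 47.7 and 44.0 CPM and a log2 fold of 0.81 (0.67 to 0.96) in the ATRX knockout. Ei24, an endoplasmic reticulum protein, had 182, 137 and 116 CPM, with log2 folds of 0.65 (0.56 to 0.74) and 0.25 (0.14 to 0.35).

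Smaller differences were seen for Aen, an exonuclease of apoptotic DNA breakdown, with 125, 111 and 94.0 CPM and a log2 fold of 0.41 (0.30 to 0.51) in the ATRX knockout. Zmat3, a zinc finger protein that binds RNA, had 173, 162 and 140.5 CPM, at 0.30 (0.22 to 0.39). Rps27l, a ribosomal protein paralog, had 260, 227 and 223 CPM, at 0.22 (0.15 to 0.29). Its level per length was the highest of all members, at 948, 827 and 875 TPM in the ATRX knockout, the DAXX knockout and WT. None of its 36-base words was shared with another gene.

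The tested receptors of the TNF receptor family did not stand above WT in either knockout. Tnfrsf10b, the TRAIL receptor of the mouse, had 41.2, 41.2 and 41.1 CPM and a log2 fold of 0.00 in each comparison, with intervals between -0.18 and 0.18. Eda2r, a receptor for ectodysplasin A2 on the X chromosome, was the member lowest against WT in the DAXX knockout, with 333 reads in the ATRX knockout, 153 in the DAXX knockout and 466 in WT. Its fold against WT was, on the log2 scale, -0.42 (-0.62 to -0.21) in the ATRX knockout and -1.20 (-1.47 to -0.93) in the DAXX knockout, which just missed the 2-fold limit and passed it when library sizes were taken as total counts. Genes of the X chromosome had a median log2 fold of -0.01 and 0.00 in the same comparisons. Eda2r and Mdm4 were the members whose whole interval lay below WT in both knockouts.

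The repair genes were of low abundance, summing to 90.3 CPM in the ATRX knockout, 81.7 in the DAXX knockout and 79.4 in WT. Polk, a translesion polymerase, had 363 reads in the ATRX knockout, 214 in the DAXX knockout and 299 in WT, a log2 fold of 0.35 (0.12 to 0.57) in the ATRX knockout. Xpc, which recognises helix-distorting lesions, had 601, 419 and 534 reads, at 0.24 (0.07 to 0.41). Rrm2b, the p53-inducible subunit of ribonucleotide reductase, had 129, 114 and 132 reads, and Ddb2, which binds ultraviolet damage, had 158, 145 and 187. The intervals of both spanned no change in every comparison. Ddb2 is uncertain, because 22.5% of its 36-base words also occur in Acp2 on the opposite strand and the sources used here do not say whether strand was used in counting. The row assigned to Tigar, a phosphatase that lowers glycolytic flux, had 924, 812 and 896 reads, with log2 folds of 0.11 (-0.02 to 0.25) and 0.27 (0.13 to 0.41).

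**Figure D3:**
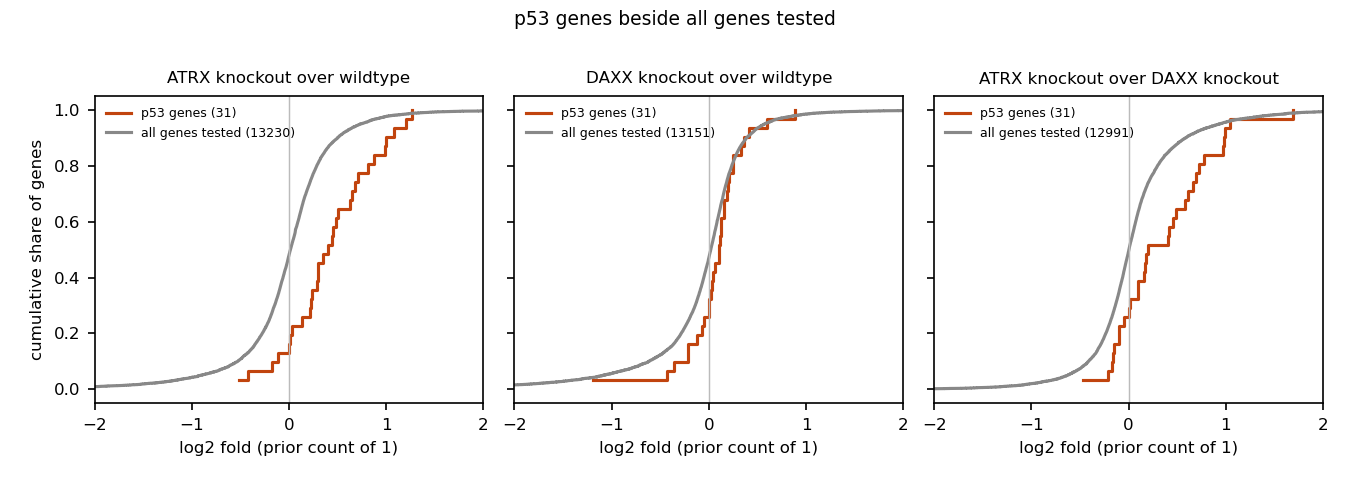
Cumulative share of the 31 tested p53 genes (orange) and of all genes tested (grey) by log2 fold with a prior count of 1, for the 3 comparisons; genes beyond a log2 fold of 2 in either direction lie outside the panels. The orange curve lies to the right of the grey one for the ATRX knockout over WT, with medians of 0.41 and 0.02, and the curves lie close together for the DAXX knockout over WT, with medians of 0.11 and 0.02.

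In the ATRX knockout against WT, 12 of 31 members (38.7%) exceeded a log2 fold of 0.5, beside 10.2% of all genes tested. In the DAXX knockout against WT it was 2 of 31 (6.45%), Sesn1 and Plk3, beside 6.76% of all genes. In the ATRX knockout against the DAXX knockout it was 11 of 31 (35.5%), beside 12.4%. Of the members with a pair of p53 copies printed above, log2 folds in the ATRX knockout against WT ran between 0.01 for Trp53 and 1.08 for Cdkn1a.

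The deposited values are per transcript, so the members with several transcripts could be looked at within the gene. The 33 members had 76 transcripts, and 20 had more than 1. Because transcripts of a gene share sequence and reads, they are not independent measures. All 3 Cdkn1a transcripts were higher in the ATRX knockout, at log2 folds between 0.79 and 1.15, and lay between -0.29 and 0.23 in the DAXX knockout. The 4 Mdm2 transcripts lay between 0.42 and 0.59 in the ATRX knockout and between -0.17 and -0.07 in the DAXX knockout. Both Trp53inp1 transcripts were at 0.97 and 1.04 in the ATRX knockout. Both Eda2r transcripts were lower than WT, at -0.44 and -0.30 in the ATRX knockout and -1.25 and -0.90 in the DAXX knockout.

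In other genes the transcripts differed more. The longest Mdm4 transcript, of 7105 bases, held 67.4% of that gene's reads in the ATRX knockout and 65.6% in WT and stood at -0.07 (-0.14 to 0.00), while the 6 transcripts ran between -0.43 and 0.09. The 4 Fbxw7 transcripts ran between 0.00 and 0.74, and the 3599-base transcript at the top of that range had 161 reads in the ATRX knockout, 118 in the DAXX knockout and 101 in WT. For Sesn1, the transcript of 3170 bases stood at 0.92 (0.61 to 1.23) in the ATRX knockout and 1.11 (0.79 to 1.43) in the DAXX knockout, and that of 2600 bases at 0.51 (0.20 to 0.83) and 0.66 (0.34 to 0.98).

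**Figure D4:**
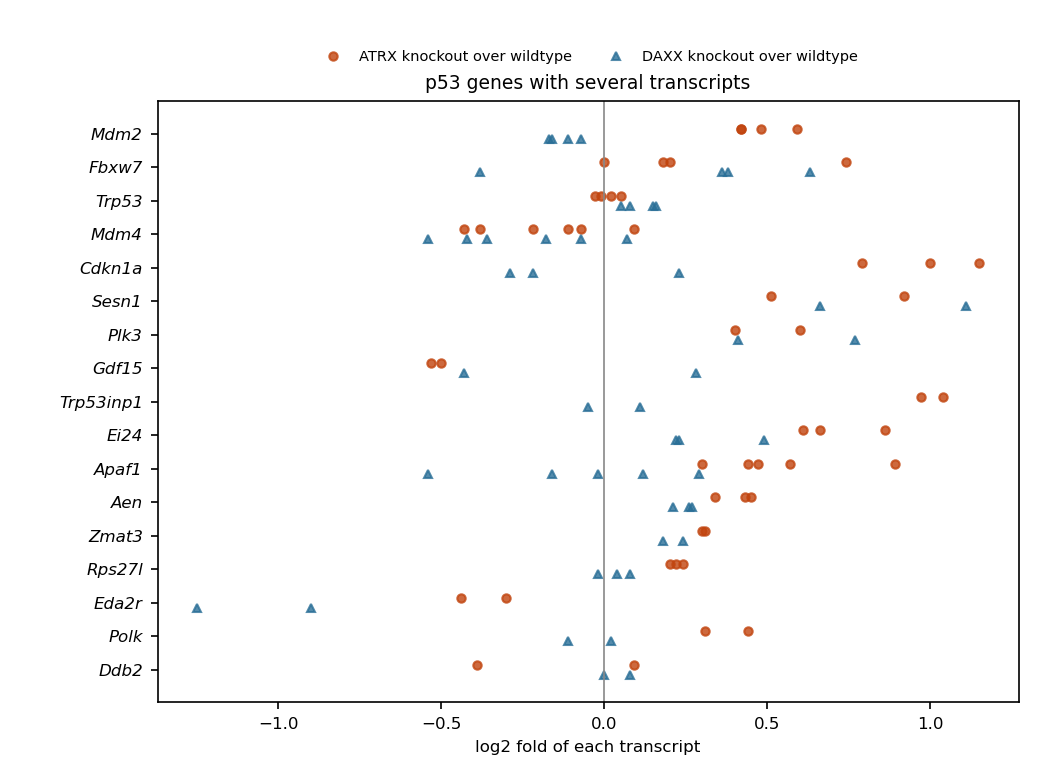
Log2 fold against WT of each transcript with at least 60 reads over the 3 libraries, for the p53 genes with more than 1 such transcript; circles are the ATRX knockout and triangles the DAXX knockout. The circles of Cdkn1a lie between 0.79 and 1.15 and its triangles between -0.29 and 0.23, and the triangles of Eda2r lie at -1.25 and -0.90.

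Other genes of the pathway were taken from further lists. Of 35 other p53 targets tested in the ATRX knockout against WT, 1 rose and 2 fell, beside 0.695% and 1.15% of all genes. The whole interval lay above no change for 20 (57.1%), beside 25.4% of all genes, and below it for 9 (25.7%), beside 21.3%, with a median log2 fold of 0.39. Trp53i11, a p53-inducible gene, rose by 1.17 (1.03 to 1.31), with 1313 reads in the ATRX knockout, 554 in the DAXX knockout and 613 in WT. Abcb1a, a drug efflux pump, fell by 1.53 (-2.03 to -1.05) with 48, 86 and 145 reads, and Thbs1, the matrix protein thrombospondin 1, fell by 1.78 (-2.24 to -1.35) with 56, 16 and 202 reads. In the DAXX knockout none of 35 rose and 3 fell, beside 0.487% and 1.55% of all genes, and the median was 0.14. Among them, Thbs1 fell by 3.25 (-4.08 to -2.51). Dram1, a lysosomal gene of autophagy, also fell, with a wide interval of -9.35 to -1.35 that rests on 5, 1 and 21 reads in the ATRX knockout, the DAXX knockout and WT. Between the knockouts, 2 of 34 rose and none fell, beside 0.770% and 0.362% of all genes, with a median of 0.27. They were Trp73, the p53 paralog p73, by 1.87 (1.27 to 2.52) with 130, 28 and 57 reads, and Pltp, a phospholipid transfer protein, by 1.35 (1.11 to 1.59) with 608, 188 and 327 reads.

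Among the upstream regulators and cofactors of p53, none of 27 tested rose or fell in any comparison, and the medians were -0.04 in the ATRX knockout and 0.06 in the DAXX knockout against WT. Over all genes at most 1.55% passed the 2-fold limit in either direction in any comparison. Counts of none in lists of this size, here and below in this paragraph, are therefore near the share of all genes. The most abundant of the regulators and cofactors were Npm1, nucleophosmin, with a log2 fold of -0.14 in the ATRX knockout, and Rpl5, a ribosomal protein that binds MDM2, with 0.17. The G2/M genes that p21 represses through the DREAM complex likewise had none of 25 risen or fallen. Their median was 0.19 in the ATRX knockout and 0.05 in the DAXX knockout, and 18 of 25 (72%) had the whole interval above WT in the ATRX knockout and 2 (8%) below, beside 25.4% and 21.3% of all genes. In the DAXX knockout 11 (44%) lay above and 2 (8%) below, beside 23.7% and 17.1%. These shares were not matched for level either. Ccnb1, cyclin B1, had 533, 461 and 449 CPM, and Cdc20, an activator of the anaphase-promoting complex, 356, 304 and 275 CPM, in the ATRX knockout, the DAXX knockout and WT. Of 20 other BCL2 family and caspase genes none rose or fell, with medians of 0.11 and 0.07. Mcl1, the survival protein that NOXA binds, had a log2 fold of 0.29 (0.23 to 0.34) in the ATRX knockout, and Cycs, cytochrome c, 0.08 (0.00 to 0.16).

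Several members also answer to other signals, and genes of those programmes moved too. Plk2, Plk3 and Btg2 belong to the immediate early response, which follows growth factor and stress signalling, and Ddit4 and Gdf15 are also ATF4 targets. Of 16 immediate early genes tested in the ATRX knockout against WT, 3 rose and none fell, beside 0.695% and 1.15% of all genes. The median of the 16 was 0.33. The 3 that rose were Fos by 1.46 (1.19 to 1.74), Egr1 by 1.42 (1.24 to 1.61) and Zfp36 by 1.45 (1.16 to 1.76). Egr1 had 885 reads in the ATRX knockout, 123 in the DAXX knockout and 346 in WT. In the DAXX knockout none of 15 rose or fell, beside 0.487% risen and 1.55% fallen over all genes, and the median was -0.19. Between the knockouts, Fos rose by 1.76 (1.43 to 2.1) and Egr1 rose by 2.50 (2.23 to 2.79). Over all genes 0.770% rose and 0.362% fell in that comparison.

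The ATF4 targets, genes of the amino acid response, stood lower than WT in the ATRX knockout by their median. Of 14 tested, none rose and 2 fell, beside 0.695% and 1.15% of all genes, with a median of -0.65. Trib3, a pseudokinase, fell by 1.33 (-1.54 to -1.12) and Chac1, which degrades glutathione, fell by 2.01 (-2.43 to -1.62), while in the DAXX knockout none rose or fell and the median was 0.16. Between the knockouts Trib3 fell by 1.46 (-1.68 to -1.24), Chac1 fell by 2.44 (-2.85 to -2.04) and the transcription factor Atf5 fell by 1.51 (-1.74 to -1.29). Over all genes 0.362% fell in that comparison. With Plk2, Plk3, Btg2, Ddit4 and Gdf15 left out, 26 members remained tested. In the ATRX knockout against WT 1 of them had risen, Pmaip1, and 19 (73.1%) had the whole interval above no change. Over all genes these shares were 0.695% and 25.4%. The median of the 26 members was 0.32 in the ATRX knockout and 0.11 in the DAXX knockout against WT, beside 0.02 over all genes in each. The part of growth factor signalling in the levels of Plk2, Plk3 and Btg2 was not tested.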

How the data were processed

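PolyA RNA-seq of 3 ESC clones was analysed from the deposited read counts per reference transcript, which the authors had not normalised, as the whole-number values in the layout of the SAMtools idxstats command show. The submitters' processing notes name Bowtie 1.1.2, SAMtools and build GRCm38.p4. The sources used here do not give alignment settings, strand use, the annotation release or how reads with several positions were placed.

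Counts were summed per gene symbol and scaled by TMM (edgeR 4.0.16, R 4.3.3), with factors of 0.990 for the ATRX knockout, 0.973 for the DAXX knockout and 1.04 for WT. Each fold has an exact conditional binomial (Clopper-Pearson, SciPy 1.17.1) 95% interval, for counting error only, and PCR copies are not independent molecules. With 1 library per genotype there were 0 residual degrees of freedom, so a rule of size was used in place of a test: the whole interval beyond 2-fold, over all genes that reached 1 CPM (counts scaled by effective library size) in either library. The rule was tested on simulated counts that held counting error only and folds larger than those of any tested member. Recovery of folds of the size seen in the members was therefore not examined. That simulation does not cover variation between clones or libraries. Medians use a prior count of 1. Levels per length are counts divided by transcript length, summed per gene and scaled to the same total (TPM).

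Positions are from GENCODE M21 (GRCm38) and promoters from RefSeq (GRCm38.p6). Sequence shared between genes was counted as words of 36 bases. All members in the files were named. Of each other list, the genes that passed the rule were named, or, where none did, the 2 with the highest level per length, and 1 gene that passed is not reported here. Members and lists were chosen with earlier results of these data known. Alternatives were total counts, DESeq2 1.42.0 size factors, other filters on low counts, the most abundant transcript, counts thinned to the smallest library, a 1.5-fold limit, leaving out 5 members, and folds relative to the chromosome median. The last of these, and the counts of whole intervals above or below no change, were chosen after seeing the data.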

Additional observations from a re-analysis of the deposited data

Results flagged for a closer look

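In 4 members the knockouts lay on opposite sides of WT, each by its whole counting interval, with the ATRX knockout above and the DAXX knockout below. The share of all genes with this pattern was not counted, so it is not known whether 4 is many. With 1 library per genotype the difference between the knockouts was not tested. The log2 fold of the ATRX knockout over the DAXX knockout was 1.70 for Plk2, 1.0 for Ddit4, 0.66 for Ccng1 and 0.61 for Mdm2. Relative to the median of all genes on chromosome 11, Ccng1 in the DAXX knockout stood at 0.03 against WT.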

How the results depend on the processing

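No paired analysis was possible because each genotype had 1 library and the labels give no replicate numbers. With a limit of 1.5-fold, 7 members rose in the ATRX knockout against WT (Cdkn1a, Btg2, Plk2, Pmaip1, Trp53inp1, Phlda3 and Perp), 1 rose (Sesn1) and 1 fell (Eda2r) in the DAXX knockout against WT, and 7 rose in the ATRX knockout against the DAXX knockout. More genes of any kind pass this lower limit, and the background shares given above are for 2-fold, so they cannot be set beside these counts. The shares of all genes at 1.5-fold are not given here, so these counts do not show whether the members stand out at that limit. With total counts as library sizes, 1 member fell in the DAXX knockout (Eda2r, at -1.29), and the median of all genes shifted to -0.05, -0.08 and 0.03 in the 3 comparisons. Without the 5 immediate early and ATF4 members, 1 rose in the ATRX knockout against WT and 0 against the DAXX knockout. Relative to the chromosome median, 2 rose between the knockouts, as Pmaip1 stood at 1.33. The median log2 fold of the members over the alternatives lay between 0.32 and 0.41 in the ATRX knockout and between 0.02 and 0.12 in the DAXX knockout against WT, and between 0.19 and 0.24 between the knockouts. The number of members whose whole interval lay above no change ran between 19 and 25, between 8 and 12, and between 17 and 21 in the same order. The cause of these shifts was not tested, apart from the fewer members and the lower limit. DESeq2 size factors, the other low-count filters, thinned counts and the most abundant transcript left the counts beyond 2-fold the same. Depth limits members with few reads, such as Gdf15, Rrm2b and Ddb2 with under 200 reads in each library and Fas and Cd82 below the tested level, and no alternative addresses the single library per genotype.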
